A study of Mus musculus with 4 samples.

Results

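The input DNA of neural progenitor cells (NPC) was compared with the input DNA of the mouse embryonic stem cells (ESC) they were made from, in windows of 1 Mb along chromosomes 1 to 19. A window was used where each input held at least 500 distinct reads, assigned by the read's midpoint, and 2376 of the 2418 autosomal windows with an input read met this minimum. Over all chromosomes there were 2586 windows with an input read. The member with the fewest reads, chr7:67000001-68000000, held 501 ESC and 698 NPC reads and a ratio of 1.07 (95% interval 0.953 to 1.2025). The window nearest to the minimum from below, chr17:95000001-96000000, held 468 and 513 reads and a ratio of 0.842 (0.741 to 0.956).

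The study profiled 5-hydroxymethylcytosine (5hmC) by immunoprecipitation and sequencing, with a 5hmC library and an input library from each cell type and 1 library per group. Both cell types belonged to the 46C line of strain 129/Ola, without siRNA or shRNA. ESC were grown in medium with fetal bovine serum and leukemia inhibitory factor, and NPC were rosette-like cells positive for Sox1-GFP at day 9 of monolayer differentiation in N2B27 medium. DNA of the cell types was sonicated and ligated to adaptors with different barcodes separately, then mixed, denatured and sampled as input before the antibody was added. Cell type, barcode, sonication and ligation therefore cannot be told apart in these libraries. Genomic DNA holds no expression marker, so the labelled cell identity could not be checked from the inputs.

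An input library counts DNA copies. In a growing culture a region copied early in S phase is present at a higher average dose than a region copied late, and neighbouring megabases are replicated together as domains, some of which switch timing when ESC become neural. Gained or lost chromosome segments also change the dose, with sharp edges, and cultured ESC are known for gains of whole chromosomes. Base composition and chromatin structure can likewise change the yield of sonication, ligation and amplification over long distances. No measured replication timing, karyotype or mm9 sequence was used here, and the part of each in the values below was not tested.

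The autosomes held 4944294 distinct ESC input reads and 6438000 NPC input reads. The median window had 2038 ESC and 2679 NPC reads, which gave its ratio a 95% interval of about 5.81% on either side. The value compared is the share of NPC reads that fell in a window divided by the share of ESC reads, so that 1 means equal shares and a value above 1 means relatively more NPC DNA. No 5hmC read enters it. Intervals are exact (Clopper-Pearson) and cover counting error only, and with 1 library per group the spread between cultures is unknown and no test between cell types was made.

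Input coverage differed between NPC and ESC by a few percent over broad stretches of the autosomes. Window ratios ran from 0.802 to 1.26 with a median of 1.001, and 90% of them lay between 0.919 and 1.13. The 95% interval excluded 1 in 821 windows, or 34.6% of those measured, where counting error alone would leave out about 5%. It lay above 1 in 465 windows (19.6%) and below 1 in 356 (15.0%). At least 1.1-fold with an interval excluding 1 were 300 windows (12.6%), of which 233 (9.81%) were higher in NPC and 67 (2.82%) lower. These are counts over all members, so they are themselves the background against which any single window stands. More windows were thus past the fold on the higher side, while the extremes lay about equally far out on the log2 scale, at 0.329 and -0.319.

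The standard deviation (SD) of the log2 ratio over windows was 0.0915, against 0.0445 from read counting. The spread beyond counting error was therefore 0.0799 on the log2 scale, or 5.69% of the ratio, and made up 76.3% of the variance.

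**Figure D1:**
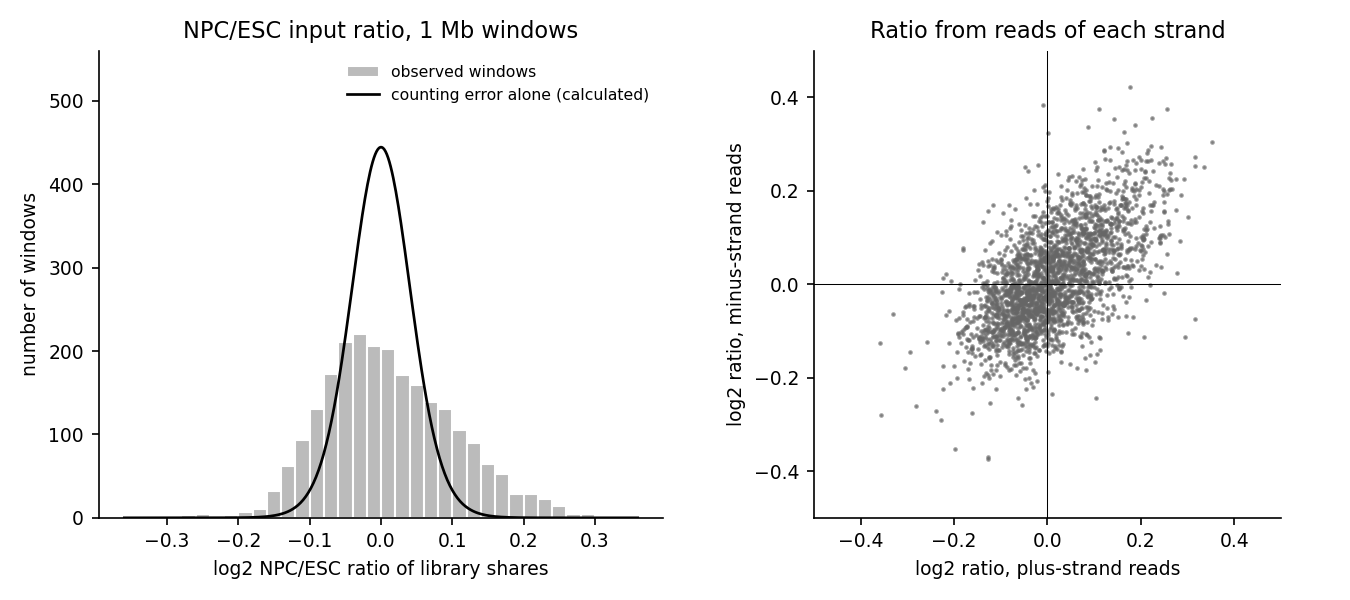
Left: number of 1 Mb windows by log2 NPC/ESC ratio of input shares (grey bars), with the curve calculated from each window's read counts if counting were the only error (black line). Right: log2 ratio of each window from plus-strand reads (x axis) and minus-strand reads (y axis). The observed bars (SD 0.0915) are wider than the curve (SD 0.0445), with more windows past 1.1-fold on the right than on the left. The strands' ratios rise together (Pearson r 0.614).

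Reads of the plus and minus strands were counted separately, since they do not share counting noise although they share the library, the base composition and the uniquely placed part of a window. Across the 2376 windows the strands' log2 ratios had a Pearson r of 0.614 and a Spearman rho of 0.599. The 100 windows with the highest ratio on the plus strand (1.18 in sum) had a ratio of 1.11 (1.102 to 1.12) from minus-strand reads, and 94 of them were above 1 there. The 100 windows lowest on the plus strand (0.884) had 0.932 (0.925 to 0.940) from minus-strand reads, with 90 below 1. The choice of windows by 1 strand thus carried over to reads that had no part in it, with the smaller differences that selection on noisy values leaves.

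The differences were broad. This spread was 0.0853 in windows of 100 kb, 0.0836 in windows of 500 kb, 0.0799 at 1 Mb and 0.0736 at 2 Mb. It then declined to 0.0594 at 5 Mb and 0.0482 at 10 Mb. Had windows of 100 kb differed independently of each other, averaging would have left 0.0270 at 1 Mb and 0.00853 at 10 Mb. Most of the difference that a window of 100 kb carried was thus shared by the megabase around it, and more than averaging of independent windows would leave was shared over 10 Mb.

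Neighbouring windows resembled each other. The log2 ratios of windows 1 Mb apart had a Pearson r of 0.479 over 2340 pairs. Set against the variance beyond counting error, the value was 0.621. The measured r fell to 0.274 at 2 Mb, 0.201 at 3 Mb, 0.103 at 5 Mb and 0.0676 at 10 Mb, and was 0.00147 at 20 Mb. Windows share their libraries and are not replicates, and these correlations describe the profile only. Of the 422 windows next to a window called higher in NPC, 82.9% had a ratio above 1, and of the 114 next to a window called lower 81.6% had a ratio below 1. Among all windows 51.3% were above 1 and 48.7% below.

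**Figure D2:**
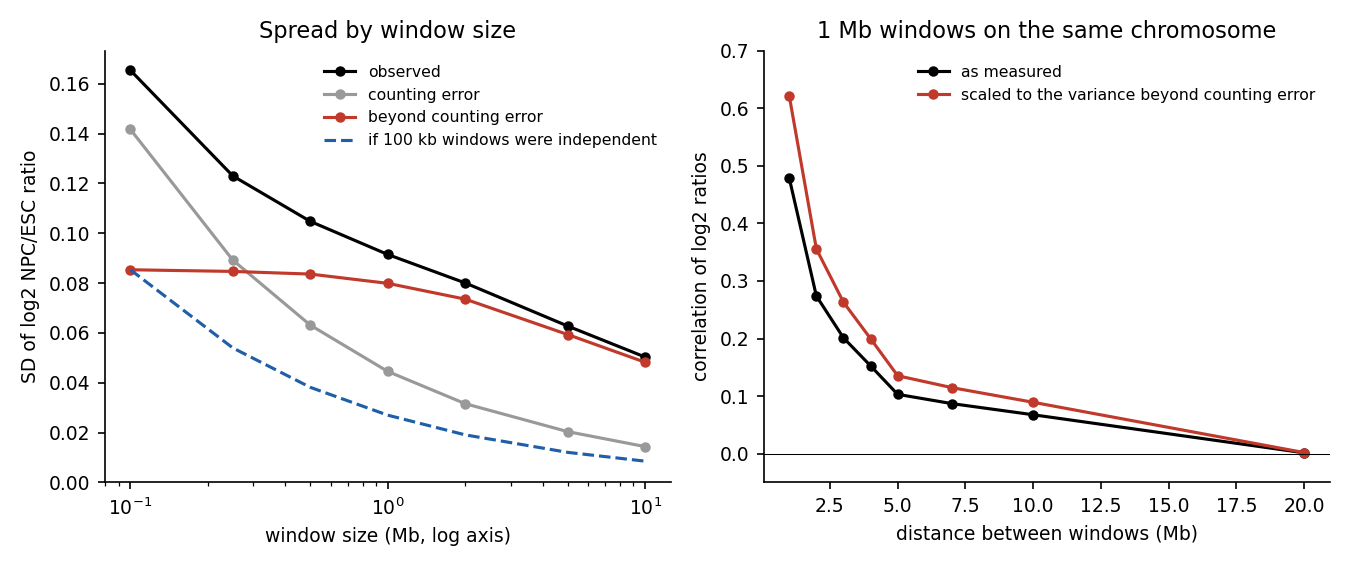
Left: SD of the log2 NPC/ESC ratio (y axis) by window size in Mb (log axis), as observed, from counting error, beyond counting error, and as averaging of independent 100 kb windows would give. Right: correlation of the log2 ratios of 1 Mb windows by their distance in Mb, as measured and scaled to the variance beyond counting error. The spread beyond counting error stays near 0.08 up to 1 Mb while the dashed line drops to 0.0270, and the correlation declines over about 5 Mb.

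A run was defined as at least 3 consecutive windows on the same side of 1, each with an interval excluding 1. There were 76 runs. Of these, 51 were higher in NPC, on 18 chromosomes, and covered 190 of the 2376 windows. The other 25 were lower, on 13 chromosomes, and covered 4.25% of the windows. Runs higher in NPC had ratios from 1.07 to 1.18 (median 1.11), and runs lower in NPC from 0.885 to 0.943 (median 0.927). At least 5 Mb long were 6 of the higher and 7 of the lower runs. Since the windows of a run were chosen for their ratio, the intervals given for runs are not adjusted for that choice.

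The longest run, chr16:68000001-82000000, spanned 14 Mb and was higher in NPC. It held 19087 ESC and 27773 NPC reads, a ratio of 1.12 (1.097 to 1.14). Its 14 windows ran from 1.06 to 1.245 with a median of 1.101, and 119 of its 140 windows of 100 kb (85%) were above 1, against 51.7% of all windows of that size. The 5 windows before it had a ratio of 1.02 (0.993 to 1.06) and the 5 after it 1.02 (0.985 to 1.046), so that the higher share ended at both edges. The strands gave 1.11 and 1.13.

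The next run, chr8:99000001-106000000, was the most uniform of the 3 longest higher in NPC. Its 7 windows lay between 1.12 and 1.19, and their sum gave 1.15 (1.12 to 1.18) from 9138 ESC and 13701 NPC reads. Of its 70 windows of 100 kb, 66 were above 1. The 5 Mb before it had a ratio of 0.989 (0.966 to 1.01) and the 5 Mb after it 0.965 (0.944 to 0.987), a change of side within a few Mb. Next came 2 runs of 6 Mb. The one with more reads, chr18:54000001-60000000, had a ratio of 1.13 (1.101 to 1.16), and chr8:5000001-11000000 had 1.13 (1.102 to 1.16). The first 2 windows on chromosome 18 stood at 1.22 each and the following 4 between 1.07 and 1.12.

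Among the runs lower in NPC, chr5:115000001-122000000 held 22961 ESC and 27639 NPC reads, which gave 0.924 (0.908 to 0.941). Its 7 windows differed little, from 0.913 to 0.943, and its flanks stood at 0.975 (0.955 to 0.996) before and 0.971 (0.951 to 0.992) after it. The run chr6:119000001-126000000 was lower, at 0.906 (0.889 to 0.924), and 62 of its 67 measured windows of 100 kb were below 1. Its flanks stood at 0.978 (0.957 to 0.999) before and 0.953 (0.931 to 0.976) after it, and the lower share went on distally in the runs chr6:127000001-130000000 (0.937, 0.910 to 0.965) and chr6:131000001-137000000 (0.897, 0.876 to 0.919). It deepened in the middle, where chr6:122000001-123000000 reached 0.838 (0.794 to 0.884) from 2605 ESC and 2843 NPC reads. The run chr2:28000001-34000000 had 0.933 (0.916 to 0.950), with a flank at 0.970 (0.950 to 0.991) before it and a flank after it whose interval held 1 (0.976 to 1.02).

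**Figure D3:**
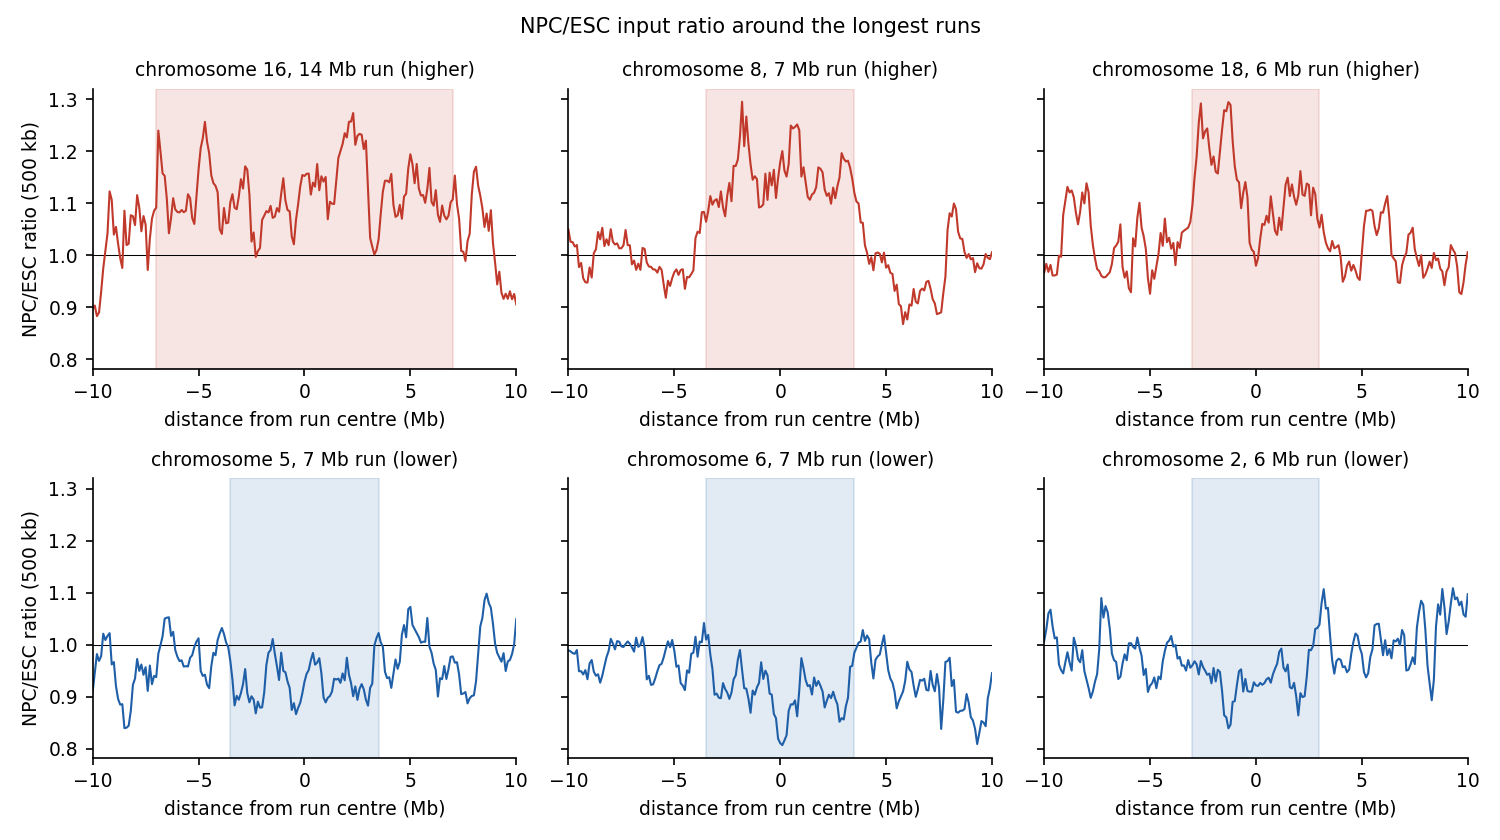
NPC/ESC ratio of input shares in sliding sums of 500 kb (y axis) by distance from the centre of the run in Mb (x axis), for the 3 longest runs in each direction. Shading marks the run. The chromosome 8 run rises to a plateau (1.15 in sum) and returns below 1 after it, the chromosome 18 run is highest at one edge, and the chromosome 6 run is deepest near its centre.

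The single windows with the highest ratio lay on different chromosomes. They were chr1:68000001-69000000 at 1.26 (1.16 to 1.36) from 1059 ESC and 1732 NPC reads, and chr16:77000001-78000000, inside the longest run, at 1.245 (1.16 to 1.33) from 1399 and 2268 reads. The window chr5:47000001-48000000 had 1.23 (1.15 to 1.32), chr11:38000001-39000000 had 1.23 (1.14 to 1.32) and chr6:78000001-79000000 had 1.23 (1.14 to 1.32). In each of these 5 windows both strands were above 1.1, and each had reads in 196 to 198 of its 200 tiles of 5 kb, like the median window with 198. They were picked as extremes of 2376, and their intervals make no allowance for that.

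The windows with the lowest ratio differed from the highest ones in coverage. On chromosome 12, chr12:21000001-22000000 stood at 0.802 (0.747 to 0.860) from 1530 ESC and 1597 NPC reads, and its neighbour chr12:20000001-21000000 at 0.825 (0.731 to 0.932) from 522 and 561. Reads were found in 157 and 148 of their tiles. The window chr9:3000001-4000000, the first covered one of its chromosome, stood at 0.829 (0.785 to 0.875), but 40.2% of its reads lay in tiles with more than 5 times the median count, and without these tiles its ratio was 0.932. The window chr7:20000001-21000000 had 0.835 (0.785 to 0.888) with reads in 134 tiles. The last was the chromosome 6 window above, with reads in 192 tiles. Thin cover was more frequent among windows called lower, where 10 of 67 (14.9%) had reads in fewer than 180 tiles, than among those called higher (2 of 233, 0.858%) or all windows (90, 3.79%). The remaining 57 windows called lower had at least 180 covered tiles. Over the 2286 windows with at least 180 covered tiles the spread beyond counting error was 0.0790.

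Whole chromosomes differed far less than their windows. The highest ratio was that of chromosome 14, 1.61% above 1 (1.04% to 2.18%), followed by chromosome 3 at 1.57% above 1. The lowest was that of chromosome 17, 1.48% below 1 (0.899% to 2.06%), followed by chromosome 5 at 1.37% below 1. Intervals lay above 1 for 7 chromosomes and below 1 for 7 of the 19. An added copy of a chromosome present in every NPC and absent from ESC would give a ratio of 1.5, and a lost copy 0.5, before any adjustment for the rest of the genome. On that scale the value of chromosome 14 equals that of a copy added in 3.21% of the cells, and the largest chromosome differences were thus small parts of 1 copy. A gain that both cell types carry would not show in this ratio. Over the 19 chromosomes, the ratio had a Spearman rho of -0.791 with the median rank of a chromosome's windows by ESC 5hmC reads.

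Windows varied on every chromosome. Their spread beyond counting error ran from 0.0632 on chromosome 10 to 0.0931 on chromosome 16, next to 0.0913 on chromosome 12. The share of windows called was lowest on chromosome 10 (3.94%, 5 of 127) and highest on chromosome 12 (21.2%, 24 of 113). On chromosome 12, 21 of these were higher in NPC and 3 lower. Chromosomes 6 and 7 held the most windows called lower, 11 of 147 and 12 of 135, and on chromosome 7 these outnumbered the 10 called higher. Chromosome 15 had 8 windows called higher and none of 101 called lower.

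**Figure D4:**
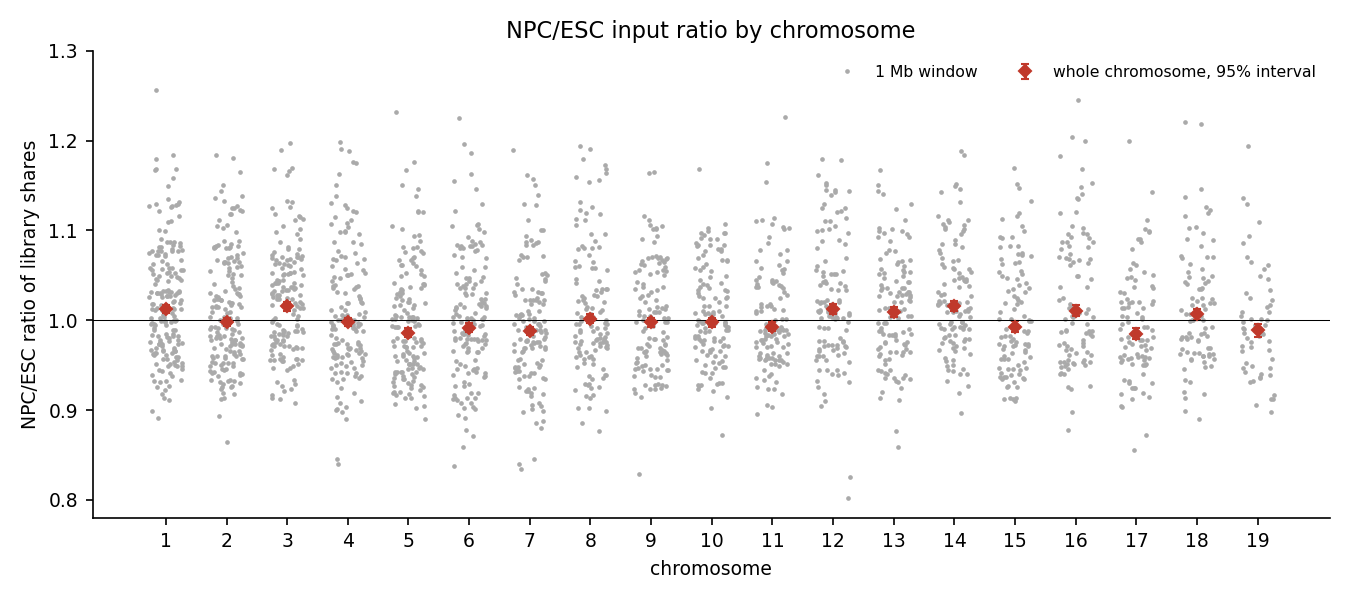
NPC/ESC ratio of input shares (y axis) by chromosome (x axis), for each 1 Mb window (grey points, spread sideways for visibility) and for all reads of the chromosome (red diamonds with 95% intervals of counting error). Chromosomes stay within 1.61% of 1, while windows of each chromosome reach beyond 10% on at least one side.

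Single windows were also set against the ratios that 1 added or lost copy in every NPC would give. Of the 4731 windows of 500 kb with at least 250 reads in each input, none had an interval that reached 1.5 or 0.5, and the intervals lay between 0.658 and 1.48. At 100 kb the depth did not allow this, since the intervals of 1686 of 23245 windows (7.25%) reached 1.5, with 22 ratios at or above it, and those of 3 reached down to 0.5. A coarser rule was applied there. A window of 100 kb counted as changed at a ratio of at least 2 or at most 0.5 with an interval excluding 1, among windows with at least 100 reads in an input. None of the 23245 did (0.0%), a rule that 1 added copy would not pass, and none lacked reads in either input. The extremes were 0.625 (0.462 to 0.843) at chr7:50300001-50400000, from 102 ESC and 83 NPC reads, and 1.67 (1.31 to 2.16) at chr17:60100001-60200000, from 95 and 207 reads. No run of 3 windows of 1 Mb was at least 25% above 1 throughout or at least 20% below 1 throughout. A single window stood 25% or more above 1, the chromosome 1 window named before, and none stood 20% or more below 1. The comparison at 500 kb covers only gains or losses of 1 copy that fill a whole window. Shorter ones, ones split between neighbouring windows, and segments carried by a small part of the cells were not detectable by these rules.

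Summed over chromosomes, the ends were slightly lower in NPC. The first 5 Mb of windows of the 19 chromosomes had a summed ratio 1.98% below 1 (1.38% to 2.58%), and the last 5 Mb 1.26% below 1 (0.699% to 1.81%). In both, single windows spread on either side, from 0.829 to 1.17 at the first end and from 0.904 to 1.12 at the last. By chromosome, 8 of 19 first ends and 7 of 19 last ends were above 1, so the lower sum was not shared by all of them. For the rest of the windows 10 of 19 chromosomes were above 1, so that by chromosome the ends differed little from the rest. Without tiles above 5 times the median count, the first 5 Mb stood at 0.985 (0.979 to 0.991), against 0.980 with them. The last 5 Mb then stood at 0.987 (0.981 to 0.993).

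The ratio moved with 5hmC, a readout that the choice of windows did not use. 5hmC is formed from 5-methylcytosine by TET enzymes and is known to mark gene-rich, active parts of the ESC genome. When windows were sorted into 10 bins by the number of distinct ESC 5hmC reads, the poorest bin (median 413 5hmC reads) had an input ratio 6.54% above 1 (6.02% to 7.07%), and the richest (median 8059) 4.41% below 1 (4.12% to 4.70%). Each bin in between lay lower than the one before it. Among the poorest 238 windows 198 were above 1, and among the richest 237 only 20. Across windows the log2 ratio and the log2 of 5hmC reads had a Pearson r of -0.525 and a Spearman rho of -0.546, and within single chromosomes rho ran from -0.354 (chromosome 13) to -0.722 (chromosome 2).

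Windows called higher in NPC lay almost all in the 5hmC-poor part of the genome, while those called lower were divided. Of the 233 called higher, 222 were in the poorer 1188 windows and 11 in the richer 1188. Of the 67 called lower, 30 were in the poorer and 37 in the richer windows. The poorest of the 10 bins held 272867 ESC input reads in 238 windows and the richest 767107 in 237. Counting error is thus larger in poorer windows and can carry more of them past a fixed fold, on either side. Runs were more sharply divided: 47 of 51 higher runs had a median 5hmC rank in the poorer part and 23 of 25 lower runs in the richer part. A run asks for intervals excluding 1 but for no fold. Deeper windows have narrower intervals, so smaller differences can qualify in the richer part, and the division of runs depends partly on depth. The exceptions were picked out after their values were seen. Those higher in NPC were chr1:189000001-192000000 (1.09, 1.053 to 1.12), chr11:110000001-113000000 (1.099, 1.06 to 1.14), chr13:91000001-94000000 (1.095, 1.06 to 1.14) and chr14:23000001-26000000 (1.07, 1.04 to 1.11). Those lower in NPC were chr4:143000001-148000000 (0.885, 0.858 to 0.912), where a window had reads in as few as 100 tiles, and chr5:27000001-31000000 (0.931, 0.907 to 0.956).

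Windows also varied more where ESC 5hmC reads were few. Input reads were few there as well (Spearman rho 0.952 between ESC input and ESC 5hmC reads), so the 2 cannot be told apart. Beyond counting error, the spread was 0.0751 on the log2 scale in the poorest bin and 0.0852 in the third, and 0.0307 in the richest. The 5hmC-rich windows thus had ratios close to each other, slightly below 1, also where they formed long runs.

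**Figure D5:**
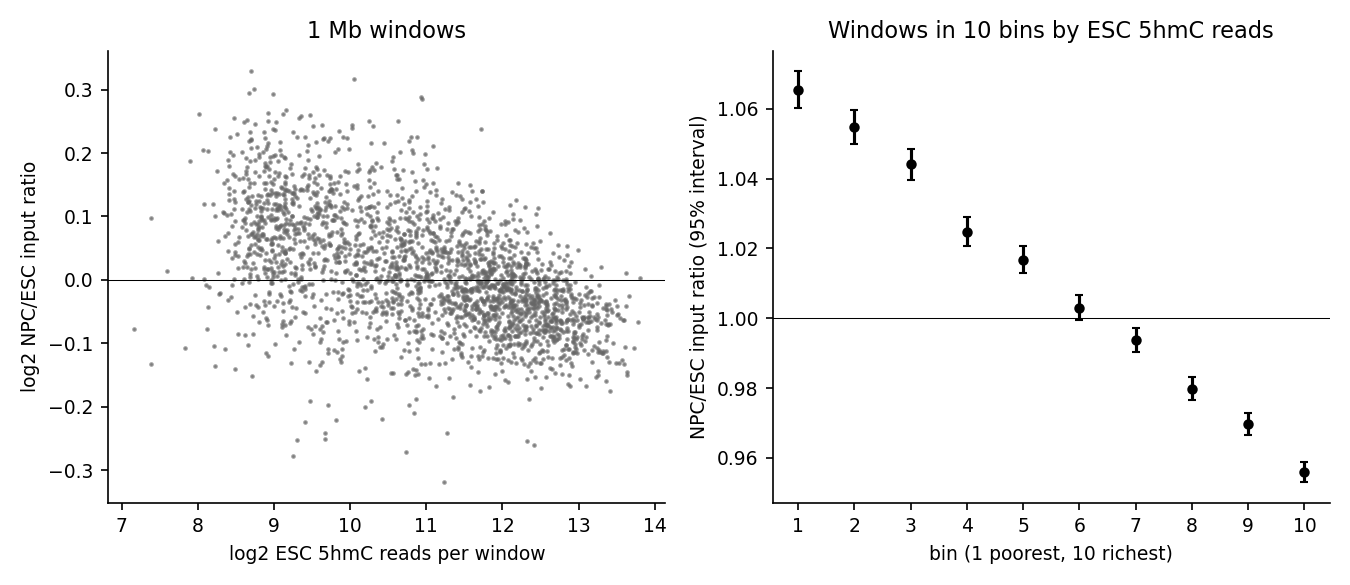
Left: log2 NPC/ESC input ratio of each 1 Mb window (y axis) by log2 of its ESC 5hmC reads (x axis). Right: NPC/ESC input ratio of the summed reads in 10 bins of windows by ESC 5hmC reads, with 95% intervals of counting error. The ratio declines from 6.54% above 1 in bin 1 to 4.41% below 1 in bin 10, and the points on the left narrow towards the right.

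The ESC 5hmC library was made from the same DNA preparation as the ESC input, and a region of high dose in ESC would be read more often in both. Windows were therefore also sorted by NPC 5hmC reads, an ordering chosen after the data were seen. The poorest bin then had a ratio 2.19% above 1 (1.68% to 2.70%), the second 4.25% above 1 and the richest 3.23% below 1 (2.94% to 3.52%). On the log2 scale the difference between the poorest and the richest bin was 0.0786, against 0.157 with ESC 5hmC. The poorest bin was no longer the highest. NPC 5hmC in turn shares its DNA with the NPC input, so a high dose in NPC would act the other way. Its library was also smaller, with 1709355 distinct autosomal reads against 7042662 for ESC 5hmC. The value of 0.0786 is therefore not a corrected one.

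Input coverage itself followed the same axis in both libraries. Over windows with at least 180 covered tiles, the SD of log2 reads beyond counting error was 0.474 in the ESC input and 0.431 in the NPC input. The 95th percentile of reads per window was 2.81 times the 5th in ESC and 2.56 times in NPC. ESC input and ESC 5hmC reads rose together over all members (Spearman rho 0.952), and so did the inputs (0.986). NPC coverage thus followed ESC coverage with a narrower range. The ratio from minus-strand reads fell with the input coverage counted on the plus strand (rho -0.387), so that the relation was also found between reads that share no counting noise. Whether base composition, amplification or copy dose sets the coverage of a window was not tested.

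A straight line on log2 5hmC reads, fitted after the data were seen, had a slope of -0.0342 per doubling and took up 36.1% of the variance beyond counting error. A spread of 0.0639 was left, and windows 1 Mb apart still had a correlation of 0.396. Relative to this line, 188 of the 2376 windows were past 1.1-fold, 95 higher and 93 lower, and 34 runs were left. The runs on chromosomes 16, 8 and 18 stood at 1.08, 1.09 and 1.12 relative to the line, and those on chromosomes 5, 6 and 2 at 0.966, 0.931 and 0.972. The run on chromosome 18 thus kept most of its height, and its first 2 windows were, by a ranking made after the data were seen, among the members furthest above the line, with chr16:77000001-78000000 and chr8:10000001-11000000 (1.18, 1.12 to 1.24).

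Stacked reads moved little with the ratio. The share of positions with more than 1 read had a median of 0.267% per window in the summed inputs, and its Spearman rho with the ratio was -0.146. The share of reads on the plus strand had a rho of -0.00234. Among members, 21 had a read in a tile above 5 times the median count. Without such tiles 294 windows were called, 232 higher and 62 lower, against 300 of 2376 with them.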

How the data were processed

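Each deposited file lists read positions with a strand on build mm9, extended to 350 bp, and the authors' column of whole-number counts gives the reads at each position. Bowtie 0.12.7 is named per the submitters' processing notes; read filters and the handling of reads with several matches were not given in the sources used here. The inputs held 5106976 (ESC) and 6637930 (NPC) reads, with 1 read at 99.7% of positions in each. Distinct reads (1 per position and strand) were counted in windows from position 0 with scipy 1.17.1, pandas 2.3.3 and numpy 2.4.6 under Python 3.11.15. Library shares used all distinct reads of chromosomes 1 to 19. The spread beyond counting error is the variance of the log2 ratio less the mean of 1/n + 1/m on that scale, and was tested on simulated data. The named windows are the 5 highest and 5 lowest with an interval excluding 1, and the 3 longest runs in each direction, with ties for the third place in both directions broken by the number of reads. Genes were planned as well but left out, since the gene table is of another build. The rule for windows and the measures were chosen with earlier results of these data known. Alternatives were other window sizes, minimums, folds and centres, all reads, 5' ends, single strands and no repeat-dense tiles (47 tiles of 5 kb).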

Additional observations from a re-analysis of the deposited data

How the results depend on the processing

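No paired analysis was possible because each group held 1 library. Values changed with window size; the cause was not tested. With 500 kb windows 818 of 4731 passed the fold, against 300 of 2376 at 1 Mb. The spread was 0.0836, windows 1 Mb apart correlated at 0.347 and the strands at 0.459. With 2 Mb windows these values were 107 of 1203, 0.0736, 0.388 (2 Mb apart) and 0.728. Thresholds of 5% and 20% in place of 10% gave 811 and 11 of the 2376 windows. Runs of at least 5 windows numbered 13, with 6 higher and 7 lower against 51 and 25 among all runs, so that the balance of directions turned. Reads of the plus strand alone gave 29 runs, a neighbour correlation of 0.382 and a highest chromosome ratio of 1.02, and those of the minus strand 24 runs and 0.379, with fewer reads per window. With all deposited reads the difference between the 5hmC-poorest and richest bins was 0.168 on the log2 scale, and chromosome 2 replaced chromosome 17 as the lowest. Chromosome 5 was lowest with plus-strand reads and without repeat-dense tiles, and chromosome 3 highest with minus-strand reads. Ordering by NPC 5hmC gave 0.0786. Removing the line on 5hmC gave 188 of 2376 windows, a spread of 0.0639 and 34 runs. The neighbour correlation was then 0.396 and the strand correlation 0.503. The cause was not tested. None of the other results changed direction under the alternatives run. Depth limits single windows: the 95% interval reached about 5.81% to either side in the median, and 4.63% to 7.76% in the central 90% of windows.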
